A study of Arabidopsis lyrata subsp. lyrata and Arabidopsis thaliana with 7 samples.

Results

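The version-2 annotation of *Arabidopsis lyrata* holds 1,047 gene models, here called protein coding by their source, on scaffolds other than 1 to 8. They were taken from the gene lines predicted by Augustus or Cufflinks (a further source, JGI, contributed none of them), and they made up part of 31,963 protein coding models in all, of which 30,916 lie on scaffolds 1 to 8. Scaffolds 1 to 8 correspond to the chromosomes of *A. lyrata*, and scaffolds outside them, here called unanchored, have no assigned place on a chromosome. The unanchored models lie on 411 scaffolds. Scaffold 9 alone carries 193, and the other 410 scaffolds carry 854.

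Sequence remains unanchored mostly where repeats interrupt the assembly or where too few markers tie a piece to a linkage group, and short pieces often end inside a gene. Transposable elements (TEs), the mobile repeats of plant genomes, are dense around centromeres, where assemblies commonly break. A gene with a reciprocal best match in *A. thaliana*, a selfing relative with a smaller and nearly complete genome, can be placed by comparison, because long runs of genes kept their order between both species.

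The libraries were made from polyadenylated RNA of mock-treated plants of the *A. lyrata* strain MN47, grown in soil with 16 h of light at 21 °C and 8 h of dark. They comprise 2 libraries of entire vegetative rosettes, 1 of dissected shoot apical meristems (here shoot apex, or apex) and 2 of entire inflorescences, and 2 rosette libraries of *A. thaliana* Col-0 were grown in the same way. Rosettes and apices were harvested from plants of about 3 weeks with 5 leaves, and inflorescences were taken from main stems, with no age given. The labels do not say whether replicates came from separate plants, so p-values measure the spread between these libraries only. The counted reads numbered 10,556,736 to 28,347,972 per *A. lyrata* library, with the shoot apex the shallowest and the inflorescences the deepest. All 4 matched rosette marker genes were highest in rosettes and all 5 floral marker genes in inflorescences. Of 6 meristem marker genes, STM and KNAT1 were highest in the shoot apex, CUC2 and CUC3 lay between both inflorescences there, WUS was highest in inflorescences and CLV3 was near 0 throughout. The inflorescence reads were shorter than those of the other tissues, so read length and tissue cannot be told apart. In whole tissues, fewer cells of a type and less RNA per cell cannot be told apart either.

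Most unanchored scaffolds carried 1 or 2 models. Of the 411 scaffolds, 185 carried 1 model and 128 carried 2, and 28 carried 5 or more. After scaffold 9, the largest sets were on scaffolds 22 and 34 with 13 models each, scaffold 92 with 10 and scaffold 26 with 9 (scaffold 80 also had 9). Of the members 999 were Augustus and 48 were Cufflinks models. Cufflinks models, which were built from read alignments and carry no coding region here, made up 4.58% (95% exact interval 3.40 to 6.03) of unanchored against 0.993% of anchored models. All such intervals cover counting error only.

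Many models on small scaffolds were incomplete. An Augustus model lacked its start or its stop codon in 211 of 999 cases (21.1%), against 3 of 30,304 on scaffolds 1 to 8. On scaffold 9 this was true of 1 of 190 models, and on the other unanchored scaffolds of 210 of 809 (26.0%). A start within the first 100 bases of the scaffold was found for 119 unanchored models (11.4%) and for 2 anchored ones. The unanchored models had a median gene length of 1,649 bp against 2,096.5 bp, and a median coding length of 268 against 346 codons. Scaffold 9 stood between these values in coding length, with 290.5 codons, and its median gene length was 2,150 bp. The share with more than 1 exon was 78.6% (76.0 to 81.1) against 82.7%, and 3.53% against 7.14% had 2 or more transcripts.

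The TE share of unanchored models was low, and the share with an *A. thaliana* ortholog was far lower than on the chromosomes. A field in the annotation that marks a gene as containing a TE was present in 69 unanchored models (6.59%, 5.16 to 8.27), against 13.4% on scaffolds 1 to 8, where single scaffolds ranged from 11.1 to 15.7%. An *A. thaliana* ortholog was listed for 197 (18.8%, 16.5 to 21.3) against 71.0%. Both shares differed sharply within the set. Scaffold 9 had the TE field in 57 of 193 models (29.5%) and an ortholog in 79 (40.9%), while the remaining scaffolds had the TE field in 12 of 854 (1.41%) and an ortholog in 118 (13.8%). The 12 TE models outside scaffold 9 lay on 12 different scaffolds. The largest class, with neither a TE field nor an ortholog, held 787 models (75.2%) against 20.2% of anchored models. The rule by which this field was set is not given in the sources used here, and it need not equal a class of TE genes.

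**Figure D1:**
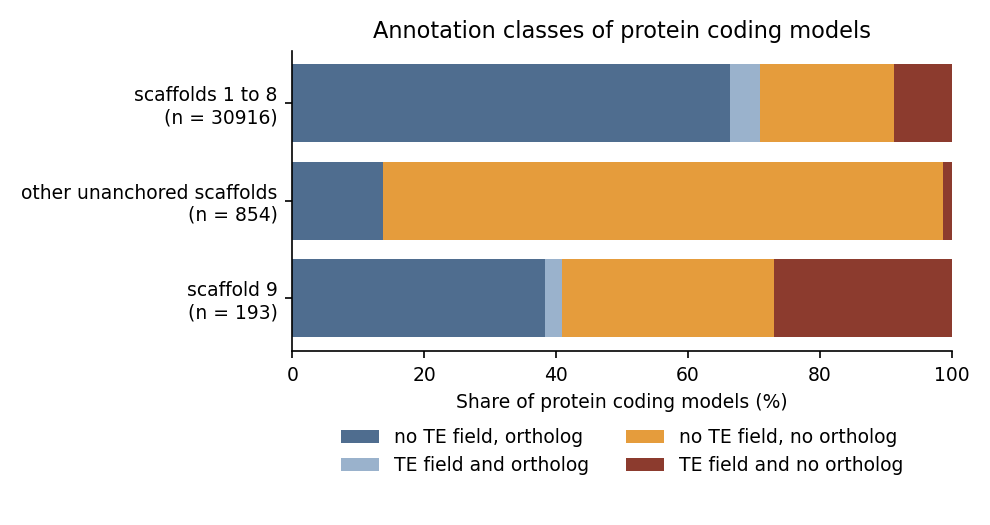
Share of protein coding models (%) by TE field and *A. thaliana* ortholog on scaffold 9 (193 models), the other unanchored scaffolds (854) and scaffolds 1 to 8 (30,916). Models with neither fill 84.9% of the bar of the other unanchored scaffolds, 32.1% of that of scaffold 9 and 20.2% of that of scaffolds 1 to 8.

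Scaffold 9 matched a single stretch of *A. thaliana* chromosome 4. Of its 79 models with an ortholog, 71 had it between AT4G12640 and AT4G13490, from base 7,462,532 to base 7,840,284 of chromosome 4 (TAIR10 coordinates). This stretch measures 378 kb, whereas the same models span 1,759 kb on scaffold 9. Along scaffold 9, the first 62 of these models ran in reverse order, with 60 of 61 steps between neighbours falling on chromosome 4 and the remaining step lying between orthologs with the same annotated start. In this run 61 models were on the strand opposite to their ortholog. The last 9 models ran forward, with 8 of 8 steps rising, and all 9 were on the strand of their ortholog. The change of direction lies between AL9U11680 (AT4G12740) and AL9U11890 (AT4G12640). The 9 models are those with the lowest positions on chromosome 4, AT4G12640 to AT4G12730.

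**Figure D2:**
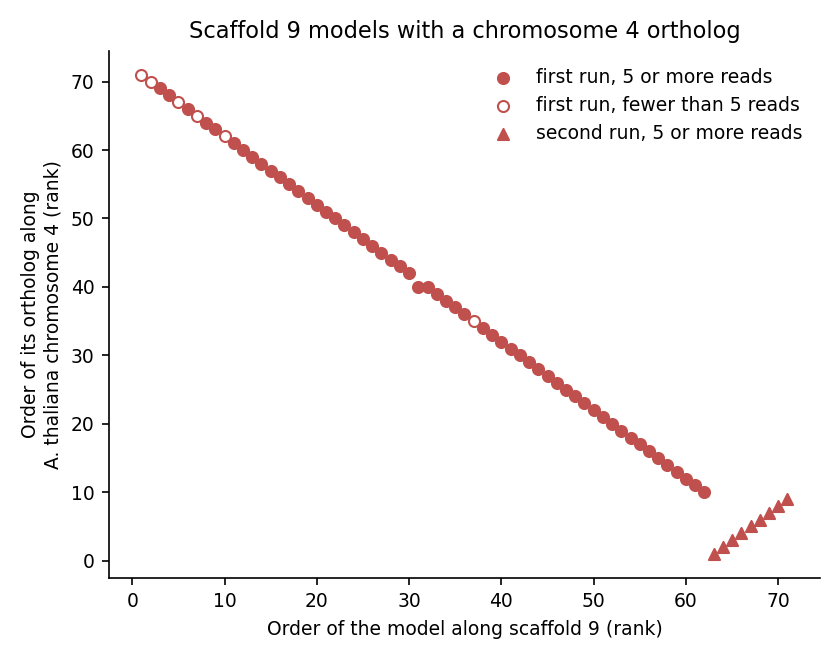
Order of 71 scaffold 9 models along the scaffold against the order of their orthologs along *A. thaliana* chromosome 4, both as ranks. Circles are the 62 models of the first, falling run, triangles the 9 models of the second, rising run, and filled symbols the 65 models with at least 5 reads in 1 or more libraries.

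Most genes of the stretch had their ortholog on scaffold 9. Of 94 *A. thaliana* protein coding genes in it, 72 had an ortholog on scaffold 9 and 1, AT4G12950, had it on scaffold 7 (AL7G23090). No ortholog was listed for the other 21, which include the neighbouring terpene synthase genes TPS12 and TPS13 and the cytochrome P450 genes CYP71A19 and CYP71A20 between and beside them. Outside the stretch, the nearest *A. thaliana* genes with an anchored ortholog have it on different scaffolds. These are AT4G12620, with its ortholog on scaffold 6 (AL6G46450), and AT4G13510, with its ortholog on scaffold 7 (AL7G42030). The other 8 orthologs of scaffold 9 models lie elsewhere. They include EMB3010, a ribosomal protein S6 gene of chromosome 5, and the plastid genes psaC and ndhH, which encode a photosystem I subunit and a subunit of the plastid NADH dehydrogenase-like complex. Of the 71 models in the stretch 65 were expressed, that is, had at least 5 reads in 1 or more libraries. Of the 114 scaffold 9 models without an ortholog 60 were expressed.

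The 118 orthologs of models on the smaller scaffolds were spread over the genome. They lay on chromosomes 1 to 5 in numbers of 16, 35, 24, 6 and 37. Within 5 Mb of the approximate position of a centromere were 8 of 118 (6.78%, 2.97 to 12.9), against 23.4% of the orthologs of anchored models and 96.1% of those of scaffold 9. The scaffold 9 share mostly counts 1 place, the chromosome 4 stretch described above. On either side of an ortholog, the nearest *A. thaliana* genes with an anchored ortholog were taken as flanks. Both flanks had their orthologs on 1 and the same anchored scaffold in 112 of 118 cases (94.9%). Models of 1 scaffold can share their flanks, as all 8 on scaffold 22 do, so the cases are not separate. In 107 cases these flanking models were within 100 kb of each other, and the median distance was 16.6 kb. The same search from orthologs of anchored models gave 96.2% on 1 scaffold and 93.4% within 100 kb. Most of these places were on scaffold 4 (33), scaffold 8 (26), scaffold 3 (22) and scaffold 2 (14). Of 17 small scaffolds with 2 or more orthologs, 15 had all of them on 1 chromosome within 100 kb. Scaffold 22 was the fullest, with 8 neighbouring orthologs from AT1G69860 to AT1G69930, among them NRT1.7, a nitrate transporter that loads nitrate into the phloem of old leaves in *A. thaliana*.

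Fewer unanchored than anchored models were expressed. The study kept Augustus models that showed transcription or overlapped a model of the earlier annotation, and 5 or more reads counted as expression. Its reads included rosettes, shoot apices and inflorescences, so the expressed shares partly follow from how models were chosen. At least 5 reads in 1 or more libraries were counted for 768 of 1,047 (73.4%, 70.6 to 76.0) against 86.3% (86.0 to 86.7) on scaffolds 1 to 8. In every library at least 5 reads were counted for 46.8% against 63.6%, and no read was counted for 141 (13.5%) against 6.32%. By library, 576 and 524 unanchored models reached this level in rosettes, 591 (56.4%) in the apex, and 704 (67.2%) and 726 (69.3%) in inflorescences. The anchored shares were 70.2, 66.1, 71.6, 81.8 and 83.5%, with both rosettes first and both inflorescences last. The deepest libraries were those with the highest shares, and after all libraries were thinned to 10,556,736 reads the unanchored shares were 53.1, 48.5, 56.4, 60.1 and 62.8%, so the inflorescences still held the highest shares.

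**Figure D3:**
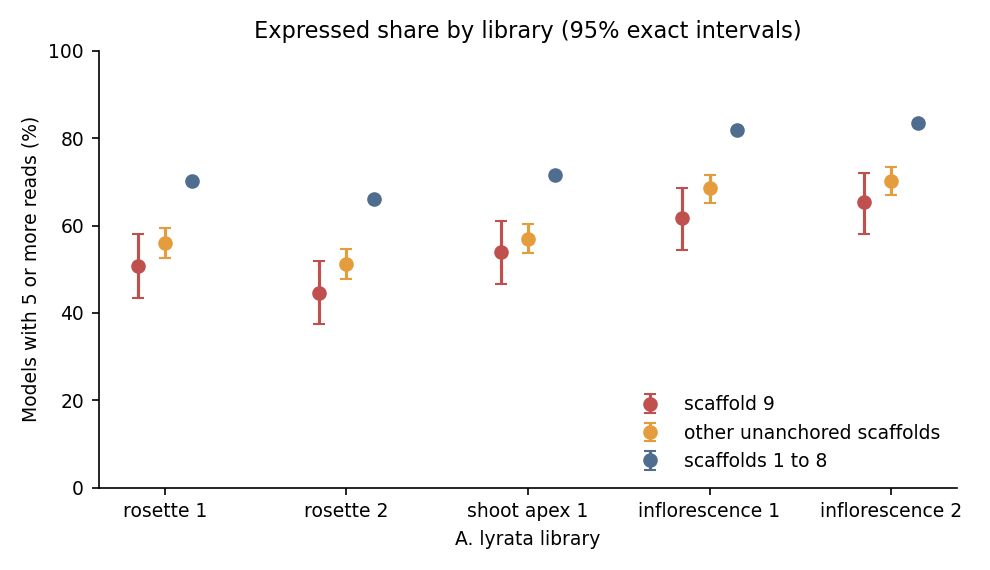
Share of models with at least 5 reads (%) in each *A. lyrata* library for scaffold 9, the other unanchored scaffolds and scaffolds 1 to 8, with 95% exact intervals. In every library the share on scaffolds 1 to 8 lies above both unanchored shares, whose intervals overlap each other.

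The gap was small within the class that most unanchored models belong to. Among models with neither a TE field nor an ortholog, 72.0% (68.8 to 75.2) of the unanchored and 74.4% (73.3 to 75.4) of the anchored models were expressed. Among models with an ortholog the shares were 86.3% (80.7 to 90.8) and 93.3%, and among those with a TE field 52.2% (39.8 to 64.4) and 67.7%. Cufflinks models were expressed in 44 of 48 cases (91.7%) against 81.1%, but they were built from read alignments, so high shares were largely fixed in advance. Of unanchored Augustus models without a start or stop codon, 80.6% (74.6 to 85.7) were expressed, against 70.3% (67.0 to 73.5) of those with both codons. Reads could be a reason for keeping a model, so these shares are no separate evidence of expression. Levels per length were lower than on scaffolds 1 to 8 for models with an ortholog, and for those with the TE field, but not for those with neither. The median of expressed models with an ortholog was 5.49, 5.82 and 5.42 CPM per kb of exon in rosettes, shoot apex and inflorescences (CPM are read counts scaled to the library total and its TMM factor), against 9.26, 8.80 and 9.93 for anchored ones. For models with the TE field, the medians were 0.301, 0.468 and 0.328 CPM per kb for unanchored and 1.33, 1.35 and 1.55 CPM per kb for anchored models. For models with neither field, the medians were 2.37, 1.99 and 2.54 CPM per kb for unanchored and 1.48, 1.75 and 2.38 CPM per kb for anchored models.

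Of all counts, unanchored models held 1.34 and 1.64% in both rosette libraries, 1.31% in the apex, and 1.17 and 1.28% in both inflorescence libraries. The rosette mean of 1.49% ± 0.214 (SD, n = 2) was above the inflorescence mean of 1.22% ± 0.0824 (SD, n = 2) without overlap, but an exact two-sided permutation test gave p = 0.333, the smallest value that 2 against 2 libraries allow. As shares of raw counts, without TMM factors, scaffold 9 and the smaller scaffolds differed in direction. Scaffold 9 took 0.725 and 1.01% in rosettes, 0.605% in the apex and 0.272 and 0.317% in inflorescences. The other unanchored scaffolds took 0.616 and 0.635% in rosettes, 0.703% in the apex and 0.894 and 0.965% in inflorescences. Much of this rise came from 1 model, AL230U10010, with 52,448 and 59,362 reads in inflorescences and 71 in both rosettes together. It held 15.9 and 17.8% of all reads on unanchored models in the inflorescence libraries. In both cases the rosette and inflorescence libraries did not overlap. The TMM factors, not used in these shares, were 0.801 and 0.722 in rosettes and 1.12 and 1.17 in inflorescences. In the edgeR fit, which uses them, models of the other unanchored scaffolds had a median log2 fold change of 0.0146 for inflorescences against rosettes. Of 560 such models tested, 86 were called higher and 85 lower, beside 17.6 and 16.7% of all models.

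**Figure D4:**
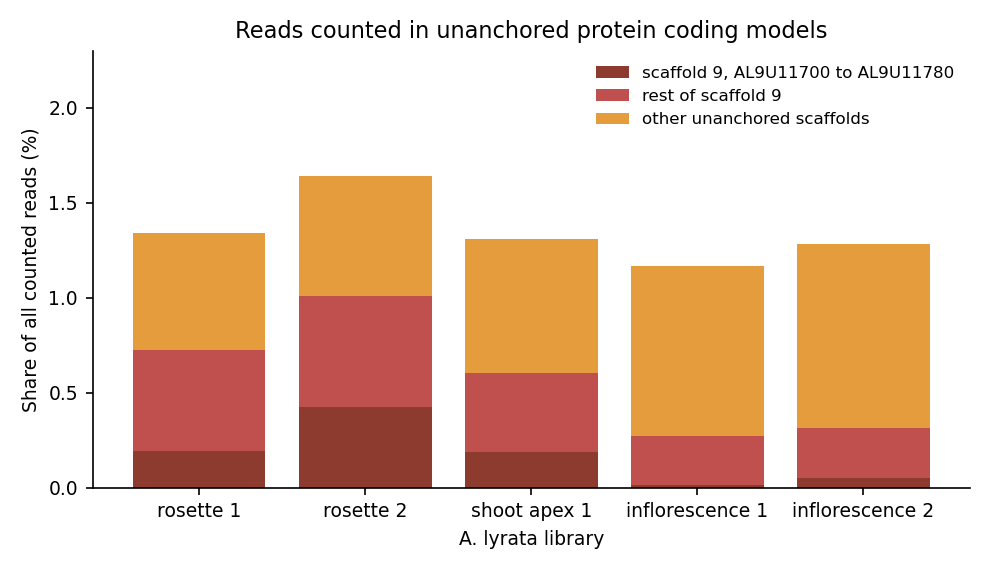
Share of all counted reads (%) in unanchored protein coding models of each *A. lyrata* library, stacked by the models AL9U11700 to AL9U11780 of scaffold 9, the rest of scaffold 9 and the other unanchored scaffolds. The scaffold 9 part falls from 1.01% in rosette 2 to 0.272% in inflorescence 1, while the other unanchored scaffolds stand highest in the inflorescences. The shares are not scaled by TMM factors.

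A stretch of 32,665 bp accounted for much of the scaffold 9 reads. It holds 9 models from AL9U11700 to AL9U11780 (bases 1,625,077 to 1,657,741 of scaffold 9), of which 6 are protein coding and 3 are tRNA genes, and it was singled out after its values were seen. It lies where the order of the chromosome 4 orthologs turns, and its only orthologs are the plastid genes psaC (AL9U11720) and ndhH (AL9U11730). Together, the 6 models had 27,843 and 56,992 reads in rosettes, 19,787 in the apex, and 3,698 and 13,810 in inflorescences, or 14.4, 26.0, 14.3, 1.12 and 4.13% of all reads on unanchored models. Replicates disagreed here more than in most unanchored models with at least 5 reads in both replicates. The level in replicate 2 was 2.46 times that in replicate 1 for rosettes and 3.90 times for inflorescences, whereas the medians over unanchored models were 1.06 (quartiles 0.767 and 1.48) and 1.01 (quartiles 0.904 and 1.21). The model with most of these reads was AL9U11700, which has the TE field and spans 10,025 bp, with 11,993 and 24,541 reads in rosettes, 7,973 in the apex and 1,599 and 5,227 in inflorescences. It was lower in inflorescences than in rosettes by -4.01 ± 0.852 (log2, SE; adjusted p 0.0296, edgeR). AL9U11740, AL9U11770 and AL9U11780 were lower too, at -3.68, -4.26 and -3.52, with adjusted p of 0.0495, 0.0325 and 0.0392 (edgeR), and AL9U11740 was not called when scaled to library totals or without the filter (0.0549 and 0.0527). The models with plastid orthologs were low, psaC with 86, 109, 93, 31 and 81 reads and ndhH with 13, 6, 16, 1 and 13 reads in the same order. AL9U11740 overlaps 2 of the tRNA genes, but no read was counted for these, and the rule by which reads on overlapping models were assigned is not given in the sources used here. Without this stretch, scaffold 9 took 0.533 and 0.581% of reads in rosettes, 0.417% in the apex and 0.258 and 0.264% in inflorescences. Without the photosystem I gene PSAL (AL9U11520) as well, it took 0.288 and 0.279%, 0.375%, and 0.239 and 0.240%.

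Of the 1,047 unanchored models, 677 passed the filter on low counts, and 215 of these (31.8%) differed between inflorescence and rosette. This is close to the 34.3% of all 25,465 models tested that were called (edgeR quasi-likelihood test, Benjamini-Hochberg adjusted p under 0.05). Higher in inflorescences were 103 (15.2%, against 17.6% of all models), and lower were 112 (16.5%, against 16.7%). The median log2 fold change was 0.02 for unanchored and 0.09 for all models tested. Scaled to library totals only, without TMM factors, the call counts were 200 higher and 77 lower, with 38.6 and 11.2% of all models, and the median over all models moved to 0.68. Fitted without inflorescence replicate 1 or 2, the calls fell to 20 and 23 (3.54 and 4.35% of all models), and without rosette replicate 1 they rose to 339 (55.7%). On scaffold 9, 17 of 117 models tested were higher and 27 lower.

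The unanchored model with most reads in the inflorescences was AL230U10010, the ortholog of ATA20 (anther 20), a gene known for expression in anthers of *A. thaliana*. It had 39 and 32 reads in rosettes, 53 in the apex, and 52,448 and 59,362 in inflorescences. The inflorescences stood far above the other libraries, by 9.07 ± 0.299 (SE) on the log2 scale against rosettes, with an adjusted p of 0.00245 by the edgeR test, and it was still called without inflorescence replicate 1 or 2 (adjusted p 0.0268 and 0.0273). The other 3 models of scaffold 230 had 20 to 180 reads in every library.

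The 10 models with the highest fitted rise in inflorescences had no read in either rosette. A fitted fold over 0 reads has no fixed size, so these models are not ranked against others, and each is given as a bound against 3 counts per library. AL286U10020, a model without an ortholog, had 0 reads in rosettes and shoot apex and 3,499 and 4,771 in inflorescences, at least 468-fold higher than in rosettes. AL728U10010, also without an ortholog, had 0 reads outside inflorescences and 2,635 and 2,685 in them, at least 299.9-fold higher. Its model runs from the first base of its scaffold. Of the 10 models, 5 were on scaffold 9, and 4 of these belong to the chromosome 4 stretch. AL9U10650, the ortholog of a late embryogenesis abundant (LEA) family gene, AT4G13230, had 0 and 0 reads in rosettes, 1 in the apex and 535 and 905 in inflorescences, at least 81.6-fold higher. AL9U11070, the ortholog of RALFL30, a small secreted peptide of the RALF family, had 251 and 230 reads in inflorescences and 0 in every other library, at least 27.1-fold higher. AL9U10110 (AT4G13450) was at least 30.9-fold higher, with 282 and 267 reads in inflorescences and 0 elsewhere. AL9U10550, also on scaffold 9, is a TE model whose ortholog, AT5G39493, belongs to the S1 self-incompatibility protein family. It had 94 and 262 reads in inflorescences and 0 elsewhere. AL582U10010, AL726U10010 and AL71U10020, without orthologs, were at least 25.9-, 24.6- and 21.6-fold higher.

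Inflorescence-restricted models were about as common as on the chromosomes. At least 5 reads in both inflorescences and none in the other libraries were counted for 66 unanchored models (6.30%, 4.91 to 7.95) and for 5.37% of anchored ones. With at least 50 reads the shares were 1.43% (0.804 to 2.35) and 2.14%. The reverse pattern was rare in both. At least 5 reads in both rosettes and none in inflorescences were counted for 4 unanchored models (0.382%, 0.104 to 0.975) and for 36 anchored ones (0.116%, 0.0816 to 0.161), with overlapping intervals. At least 50 reads in both rosettes and no read in inflorescences were counted for 3 unanchored models (0.287%, 0.0591 to 0.835), AL120U10020, AL481U10010 and AL68U10030, and for 5 of 30,916 anchored models (0.0162%, 0.00525 to 0.0377). The threshold of 50 was chosen after the values were seen.

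The falls of these 3 models are known as bounds only. AL481U10010, without an ortholog, had 375 and 330 reads in rosettes, 172 in the apex and 0 and 0 in inflorescences, at least 345-fold lower than in rosettes. AL68U10030, a single-exon model without an ortholog, had 92, 310, 4, 0 and 0 reads in the same order. Its bound of at least 208-fold lower holds for the mean of both rosettes, which differed, at 7.95 and 32.2 CPM. AL120U10020 is the ortholog of AUG2, which encodes a subunit of the augmin complex that nucleates microtubules on existing ones. It had 126 and 127 reads in rosettes, 127 in the apex and 0 and 0 in inflorescences, at least 125-fold lower, and its *A. thaliana* ortholog had 275 and 233 reads in rosettes. The neighbouring models on 2 of these scaffolds had reads in inflorescences, 199 and 202 for AL120U10010 (GH9B8, a glycosyl hydrolase) and 417 and 400 for AL481U10020. AL1025U10010 had 200 and 540 reads in rosettes, 212 in the apex, and 1 and 0 in inflorescences, a ratio of inflorescence to rosette counts of 0.00046 (95% counting interval 1.16e-05 to 0.00257). AL37U10020 also fell, with 713 and 1,728 reads in rosettes, 50 in the apex and 9 and 15 in inflorescences.

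Several models with reads in rosettes fell in inflorescences. AL9U11520 is the ortholog of PSAL, which encodes subunit L of photosystem I. It had 35,299 and 40,275 reads in rosettes, 4,460 in the apex and 5,480 and 6,416 in inflorescences, the highest count of any unanchored model in both rosettes. It was lower in inflorescences by -4.24 ± 0.324 (log2, SE; adjusted p 0.00305) and in the shoot apex by -3.50 ± 0.420 (adjusted p 0.0324, edgeR). AL9U10140, the ortholog of IIL1, the large subunit of the isopropylmalate isomerase of leucine synthesis, had 14,805 and 11,932 reads in rosettes, 15,506 in the apex and 5,796 and 5,231 in inflorescences. Rosettes and shoot apex did not differ beyond the test (0.674 adjusted p, edgeR), and inflorescences were lower than rosettes by -2.83 ± 0.210 on the log2 scale (adjusted p 0.00294, edgeR). AL9U11410, whose ortholog AT4G12900 belongs to the GILT thiol reductase family, had 1,066 and 2,075 reads in rosettes, 379 in the apex and 98 and 83 in inflorescences (-5.72 ± 0.539 log2 against rosettes, adjusted p 0.00442, edgeR). AL249U10020, without an ortholog, had 5,081, 6,409, 758, 1,203 and 1,344 reads in the same order, with both rosettes above all other libraries. AL357U10010, whose ortholog AT2G45100 encodes a protein related to the RNA polymerase III factor Brf1, had 223 and 202 reads in rosettes, 158 in the apex and 23 and 30 in inflorescences. The remaining models of the 10 with the largest fitted falls were AL96U10020, AL9U11000 and AL41U10060, at -5.07, -4.56 and -4.43 on the log2 scale. Fitted without 1 or the other inflorescence library, PSAL and IIL1 were no longer called (adjusted p 0.0560 to 0.0679, edgeR), with log2 fold changes of -4.10 and -4.39, and -2.87 and -2.79.

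**Figure D5:**
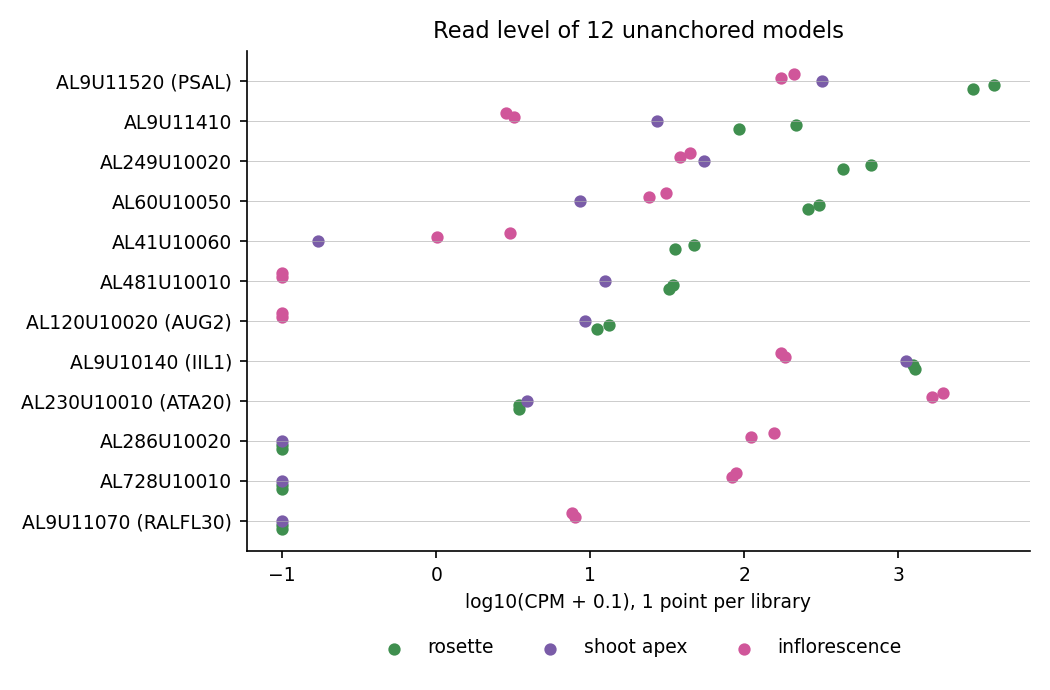
Levels of 12 unanchored models, as log10 of CPM plus 0.1, with 1 point for each *A. lyrata* library coloured by tissue; points at the left edge are libraries with no read. AL481U10010 and AL120U10020 have no read in either inflorescence, and AL286U10020, AL728U10010 and AL9U11070 have none in rosettes or shoot apex.

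Other models with many reads were not called between rosettes and inflorescences. AL9U11080, the ortholog of the ribosomal protein S6 gene EMB3010, had 2,485 and 2,288 reads in rosettes, 5,653 in the apex and 7,359 and 7,297 in inflorescences. These correspond to 215, 237, 406, 232 and 240 CPM, so the shoot apex was the highest library. The inflorescences differed from rosettes by 0.06 ± 0.17 (log2; adjusted p 0.804, edgeR), but by 0.65 when scaled to library totals, which was called (adjusted p 0.0358). The shoot apex had a log2 difference to rosettes of 0.84 ± 0.203 that did not pass the test (adjusted p 0.0793, edgeR). AL9U10610, the ortholog of the chlorophyll b reductase gene NYC1, had 201 and 407 CPM in rosettes, 34.8 in the apex and 185 and 151 in inflorescences, with the shoot apex below all others (-3.13 ± 0.565 log2 against rosettes, adjusted p 0.0504, edgeR).

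Fewer unanchored models were called in the comparisons with the shoot apex, whose only library is taken to have the same spread as other tissues. Against rosettes, 5 of 677 were higher (0.739%, with 2.11% of all models) and 35 lower (5.17%, with 6.03%), and the either-direction background was 8.14%. DESeq2 called 98 (with 15.5% of all models), and scaling to library totals alone gave 83 higher and 33 lower (21.5 and 4.41% of all models). With a library left out, the count was 0 without either inflorescence replicate (98 and 96 at an unadjusted p under 0.05), and 224 and 176 without rosette replicates 1 and 2 (41.5 and 31.4% of all models). Among the 35 was AL41U10060, with 408 and 451 reads in rosettes, 1 in the apex and 29 and 88 in inflorescences. Its ratio of shoot apex to rosette counts was 0.00177 (counting interval 4.48e-05 to 0.00989). AL60U10050, also without an ortholog, had 3,011 and 2,917 reads in rosettes, 119 in the apex and 756 and 944 in inflorescences (-5.04 ± 0.340 log2, adjusted p 0.0318, edgeR). AL848U10010, AL123U10010 and AL293U10010 were lower by -4.27, -4.03 and -3.51. The 5 higher models were AL91U10010, AL39U10020, AL181U10010, AL9U10910 and AL781U10020. AL181U10010, a TE model that begins at base 1 of its scaffold, had 21 and 12 reads in rosettes, 115 in the apex and 29 and 27 in inflorescences, and was the only one of the 5 whose shoot apex level was also called above the inflorescences (adjusted p 0.0208, edgeR).

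Against inflorescences, 24 unanchored models were higher in the shoot apex (3.55%, with 3.99% of all models) and 47 lower (6.94%, with 8.74%). Scaled to library totals the numbers were 36 and 36 (5.32 and 7.08% of all models), and DESeq2 called 118 (with 17.2% of all models). Without inflorescence replicate 1 or 2 no model was called (94 and 100 at an unadjusted p under 0.05), and without rosette replicate 1 or 2 there were 293 and 288 (48.1 and 47.7% of all models). Among the higher models, AL481U10010 and AL120U10020 were at least 128- and 94.4-fold above inflorescences, and AL1025U10010 stood at 946-fold (counting interval 168 to 37,544), AL375U10020 at 24.3-fold and AL357U10010 at 13.3-fold. Among the lower models, AL286U10020, AL728U10010, AL9U10110, AL504U10010 and AL9U11070 had no read in the shoot apex, so that only bounds of at least 620-, 398-, 41.0-, 37.1- and 35.9-fold can be given. ATA20 (AL230U10010) was lower by a ratio of 0.00212 (counting interval 0.00158 to 0.00277).

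The models with a TE field had few reads with some exceptions. Of 69, 36 were expressed, and 24 were tested. The most reads were counted for AL9U11700 and AL9U11780 of the stretch described above. They were followed by AL9U10270, the ortholog of AT4G13360, which belongs to a crotonase family, with 785 and 727 reads in rosettes, 588 in the apex and 1,828 and 1,653 in inflorescences. AL9U10840 (AT4G13150) and AL697U10020 came next with 124 to 432 and 134 to 335 reads per library. In inflorescences against rosettes 3 of the 24 were called higher and 3 lower, beside 17.6 and 16.7% of all models.

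Lists of unanchored models by the description of their ortholog were short. The models with the highest levels are given, and called models were added after their values were seen. Their counts of calls stand beside 17.6% of all models called higher and 16.7% called lower in inflorescences, and each list is too short to be set against these shares. The protein kinase list held 9 models, among them a kinase regulator (AL453U10010, MAKR5). Of the 9 models 8 were expressed, 1 rose and 1 fell in inflorescences. AL9U11190 (MHK, related to male germ cell-associated kinases) had 74.8 and 70.4 CPM in rosettes, 31.5 in the apex and 78.6 and 71.1 in inflorescences, and the shoot apex was lower than both (adjusted p 0.0418 and 0.0298, edgeR). AL92U10080 (AT2G39110) fell, with 2.33 and 3.22 CPM in rosettes and 0.818 and 0.690 CPM in inflorescences. AL9U10790 (AT4G13190) rose, with 0 reads outside inflorescences and 93 and 65 in them. Of 7 transcription factor models 5 were expressed, 1 rose and 1 fell. AL409U10020, the ortholog of the zinc finger factor VOZ2, had 5.97 and 6.33 CPM in rosettes, 12.3 in the apex and 22.0 and 22.2 in inflorescences (1.85 ± 0.175 log2 for inflorescences against rosettes, adjusted p 0.00446, edgeR). AL9U11160 (AT4G13040, an AP2-type factor) fell, with 14.5 and 17.7 CPM in rosettes and 7.40 and 8.64 in inflorescences.

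Of 5 models listed by an F-box description, members of ubiquitin ligase complexes, 4 were expressed and 1 rose. This was AL649U10030 (AT4G22390) with 10.4 and 7.27 CPM in rosettes, 15.8 in the apex and 30.5 and 27.9 in inflorescences. Of 4 transporter models 2 rose, AL142U10020 (1.68 log2) and AL294U10010 (1.61 log2), with adjusted p of 0.0469 and 0.0487 (edgeR). AL22U10110, the ortholog of NRT1.7, had 140 and 166 CPM in rosettes, 22.0 in the apex and 180 and 164 in inflorescences, with the shoot apex below both tissues (adjusted p 0.0318 and 0.00915, edgeR). Both cytochrome P450 models were expressed, and AL180U10020, the ortholog of the brassinosteroid synthesis gene CYP90D1, fell in inflorescences (-1.89 ± 0.382 log2, adjusted p 0.0261, edgeR). Of the 2 disease resistance models AL20U10040 (AT5G11250) fell. The histone model AL189U10030 (HTB4, a histone H2B) rose (0.68 ± 0.174 log2, adjusted p 0.0453, edgeR). The 3 ribosomal protein models were not called (adjusted p 0.804, 0.858 and 0.203, edgeR), and 1 of the 2 models with a plastid ortholog, psaC, fell. Under heat shock or pentatricopeptide proteins, none of the 197 unanchored models with an ortholog was listed. The anchored numbers were 145 and 276 of 21,946 (0.661 and 1.26%), shares too low for 0 of 197 to show an absence.

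Of the 141 models without a read 12 had an ortholog. The ortholog with most reads in *A. thaliana* rosettes was GLR2.8, a glutamate receptor-like gene (AL41U10010), with 20 and 13 reads. The next were AT1G20400, AT2G34270, AT4G13440 and MYB79 (AL9U10160, AL813U10020, AL9U10130 and AL9U10050), with 0 to 8 reads. Of 135 unanchored models whose ortholog had at least 5 reads in both *A. thaliana* rosettes, 8 (5.93%) had fewer than 5 in both *A. lyrata* rosettes, against 2.36% of 16,759 anchored models. The reverse, at least 5 reads in both *A. lyrata* rosettes and fewer than 5 in both *A. thaliana* rosettes, was found for 8 other models. No anchored share was counted for this reverse pattern, so both directions cannot be compared. Among the 8 models with fewer reads in *A. lyrata*, the ortholog with most reads, seen after the values were known, was that of AL439U10010. This gene is ETP1, an F-box gene of ethylene signalling that the F-box list missed because of its description. AL439U10010 had 2 and 1 reads in rosettes, 9 in the apex and 47 and 48 in inflorescences. Its ortholog had 785 and 487 reads in *A. thaliana* rosettes. The tables of both species were counted on different genomes and annotations, so the values stand side by side without a test.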

How the data were processed

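Polyadenylated RNA was sequenced by the authors as single-end reads without strand information and aligned with TopHat. The submitters' processing notes name FastQC, TopHat and TAIR10. The study used uniquely aligned reads for its analysis. The tool that counted reads, and whether the deposited counts are limited to such reads, are not given in the sources used here. The deposited tables hold counts per gene model, used as deposited. The columns that the authors headed RPKM for *A. lyrata* hold RPM, since each value is its count times 1 constant per library. The deposited *A. thaliana* values are RPKM. Scaled values were not used in any result. The deposited annotation gives coordinates, sources, the TE field and orthologs, which the authors assigned by reciprocal best protein hits. Coordinates of *A. lyrata* are those of the files, and *A. thaliana* genes were placed with a TAIR10.1 reference annotation, whose coordinates are those of TAIR10. Centromeres were set to 15, 3.6, 14, 4 and 12 Mb of chromosomes 1 to 5, as rough positions. No genome sequence of *A. lyrata* was used, so no sequence is printed.

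Of 32,793 models in the table, 25,465 passed filterByExpr and were tested with edgeR 4.0.16 (R 4.3.3) in 1 fit of all 5 *A. lyrata* libraries, with TMM factors (0.722 to 1.32), 1 mean per tissue, glmQLFit and glmQLFTest, and Benjamini-Hochberg adjustment over all models tested. The common biological coefficient of variation was 0.303, with 2 residual degrees of freedom. Folds against libraries without reads divide the mean CPM of the other tissue by a floor. This floor is 3 counts per library, which is 0.106 to 0.284 CPM before TMM scaling. The code was tested on simulated data. Shares and intervals (Clopper-Pearson) were computed with Python 3.11.15 and scipy 1.17.1. A model was called expressed with at least 5 reads. DESeq2 1.42.0, no filter, other scalings, thinned counts and left-out libraries were alternatives. Named were the 10 largest fitted log2 fold changes in each direction between inflorescence and rosette and the 5 largest in each comparison of the shoot apex, among called models whose libraries did not overlap and whose log2 CPM averaged more than 1. Also named were the 10 models with most reads, the 5 TE models with most reads, 5 models without reads, examples of function lists and the largest scaffolds; other names are said to be chosen after values were seen or are neighbours of named models. The members, lists and tests were chosen with earlier results of these data known. The values of 1 model that this rule names are not reported here.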

Additional observations from a re-analysis of the deposited data

How the results depend on the processing

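In 430 refits of the 50 tests of named models, no fold called in the full fit or the refit changed its sign. Sign changes between fits without a call were not counted. Models were named for large called folds or many reads in the same libraries, so the refits are not separate evidence. Across all refits 98 calls were lost and 2 gained. Most losses came from leaving out an inflorescence library, and DESeq2 lost none. The call counts were more fragile. Leaving out 1 library in turn gave 20 to 339 called models for inflorescence against rosette (215 in the full fit), 0 to 224 for shoot apex against rosette (40) and 0 to 293 for shoot apex against inflorescence (71), and all tested models moved likewise. Library totals alone gave 277, 116 and 72, and DESeq2 222, 98 and 118. With the replicate number as a block, 154, 0 and 28 models were called (139 at an unadjusted p under 0.05 for shoot apex against rosette). The numbers are not known to pair libraries, since the differences between replicates of rosettes and inflorescences correlated with r = 0.068 across 25,465 models.

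The expressed share of unanchored and anchored models was 86.5 and 93.7% with at least 1 read, 68.4 and 82.7% with at least 10, and 69.6 and 83.2% after thinning, and without 1 library 70.9 to 73.4% for unanchored models. The share of reads without the 5 models with most reads was 0.857% in rosettes, 0.935% in the shoot apex and 0.920% in inflorescences, so the rosettes were no longer the highest. Among models without a TE field it was 1.29% in the shoot apex. Without the stretch AL9U11700 to AL9U11780, chosen after seeing the data, it was 1.18% in rosettes, 1.12% in the shoot apex and 1.19% in inflorescences. Among models with at least 5 reads 4.69% had the TE field and 22.1% an ortholog, and without scaffold 9 the shares were 1.41 and 13.8%. Orthologs within 5 Mb of a centromere made up 42.1% with and 6.78% without scaffold 9, the latter chosen after seeing the data. Members outside scaffold 9, also chosen after seeing the data, gave 171, 30 and 59 called models. Where no cause follows from the smaller number of libraries or models, the cause was not tested. Shallow rosette and shoot apex libraries limit the detection of weakly expressed models there, and 1 shoot apex library gives no spread of its own.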
